A study of Mus musculus with 12 samples.

Results

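The genes of blood coagulation and fibrinolysis were examined in mouse liver as a list of 33 genes: the clotting factors, fibrinogen and factor XIII, the anticoagulants, and the plasminogen system. A listed gene was measured by the probe set that carries its symbol alone in the platform annotation, or by the brightest such probe set, and 31 of the 33 genes had one, out of 19937 genes with a probe set of their own. Fga is shown with both of its probe sets, which makes 32 probe sets of 34760. Klkb1, encoding plasma prekallikrein, shares its probe set with another gene, and Cpb2, encoding a carboxypeptidase that slows fibrinolysis, was likewise not analysed here. Each of 12 livers from male mice was profiled on its own array, in 4 groups of 3 livers: Atf7-/- IVF, Atf7-/- natural mating, WT IVF and WT natural mating. Age is 4 weeks in the sample records, and the study's methods give a younger age. All mice were on a C57BL6/JJmsSlc background, and Atf7-/- mice, which lack the stress-responsive transcription factor ATF7, came from Atf7-/- sperm and eggs, so the genotype of the pups and that of the sperm and egg donors cannot be told apart. Naturally conceived pups were also carried by a mother of their own genotype, whereas IVF pups of both genotypes were carried by ICR recipients. Mice conceived by in vitro fertilization (IVF) came from superovulated females, spent their first day in culture and were transferred to those recipients, whereas naturally conceived mice had none of these, so the parts of the procedure cannot be told apart either. Within a group, no 2 livers shared a recipient or mother.

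Clotting is a cascade of plasma serine proteases and cofactors, most of them made by hepatocytes and secreted. Tissue factor exposed at a wound, or contact activation, leads to factor Xa, which with factor Va turns prothrombin into thrombin. Thrombin cuts fibrinogen into fibrin, and factor XIII cross-links it. Antithrombin, heparin cofactor II, the protein C and protein S pathway and tissue factor pathway inhibitor restrain the cascade, and plasmin dissolves the clot. Factor VIII, von Willebrand factor, thrombomodulin and tissue factor pathway inhibitor come chiefly from endothelial cells. In whole liver, fewer cells of a type and less RNA per cell cannot be told apart.

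All values are log2 expression after robust multiarray averaging (RMA). The groups were compared with limma, and a gene counts as called where its adjusted p (Benjamini-Hochberg, over all 34760 probe sets) was 0.05 or less and its log2 fold change 0.6 or more in size. The fit gave 4 comparisons: IVF against natural mating in Atf7-/- and in WT mice, and Atf7-/- against WT among IVF and among natural mating mice. The interaction is the IVF change in Atf7-/- minus that in WT. Arrays of a group correlated at 0.98 to 0.99, and array medians lay between 6.22 and 6.34. Atf7 itself (probe set 10433032) averaged 5.52 ± 0.17 in Atf7-/- IVF, 5.96 ± 0.14 in Atf7-/- natural mating, 8.04 ± 0.43 in WT IVF and 8.78 ± 0.18 in WT natural mating (SD, n = 3 each). It was called lower after IVF in WT mice, at -0.74 (SE 0.19, adjusted p = 0.0384). That call was lost without any 1 of 8 of the 12 arrays (-0.80 to -0.50, adjusted p up to 0.107). In Atf7-/- mice it was -0.44 after IVF and did not pass (adjusted p = 0.171). After IVF in WT mice the second Atf7 probe set (10433034) gave -0.26 and did not pass (adjusted p = 0.19). The paper found no difference in Atf7 mRNA, and a comparable level of ATF7 protein, between WT IVF and natural mating livers. The second probe set also did not pass the test of Atf7-/- against WT, at -0.39 among IVF mice (adjusted p = 0.721) and -0.34 among natural mating mice (adjusted p = 0.0758). Where either probe set lies relative to the deleted part was not analysed. Alb, encoding albumin, averaged 13.93, 13.71, 13.88 and 13.89 in the 4 groups in that order.

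After IVF, 3.23% of the 31 members were called in Atf7-/- mice and 9.68% in WT mice, all of them higher. In Atf7-/- mice only F13b was called, 1 of 31 members higher and 0 lower, where 3.27% of all probe sets were called higher and 3.51% lower. At such shares this count is not a result about the members. The WT count was not tested against the share of all probe sets. In WT mice F13b, Pros1 and Tfpi were called, 3 of 31 members higher and 0 lower, where 2.85% of all probe sets were called higher and 1.67% lower. On the adjusted p alone, 7 members passed in Atf7-/- mice and 5 in WT mice, all of them higher. Of all probe sets, 6.12% passed higher and 6.82% lower in Atf7-/- mice, and 5.13% higher and 3.49% lower in WT mice. The members' median log2 fold change was 0.06 in Atf7-/- and 0.05 in WT mice, beside medians of 0.01 and -0.04 over all probe sets. F9, F11, F13b and Pros1 passed on the adjusted p in both genotypes, which is 57.1% of the 7 Atf7-/- members and 80% of the 5 WT members. Over all probe sets the 367 higher in both were 17.3% of the Atf7-/- list and 20.6% of the WT list. These 2 comparisons share no arrays. They do share 1 estimate of each probe set's spread, taken from all arrays, and the members were chosen with earlier results known. The overlap was not tested.

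**Figure D1:**
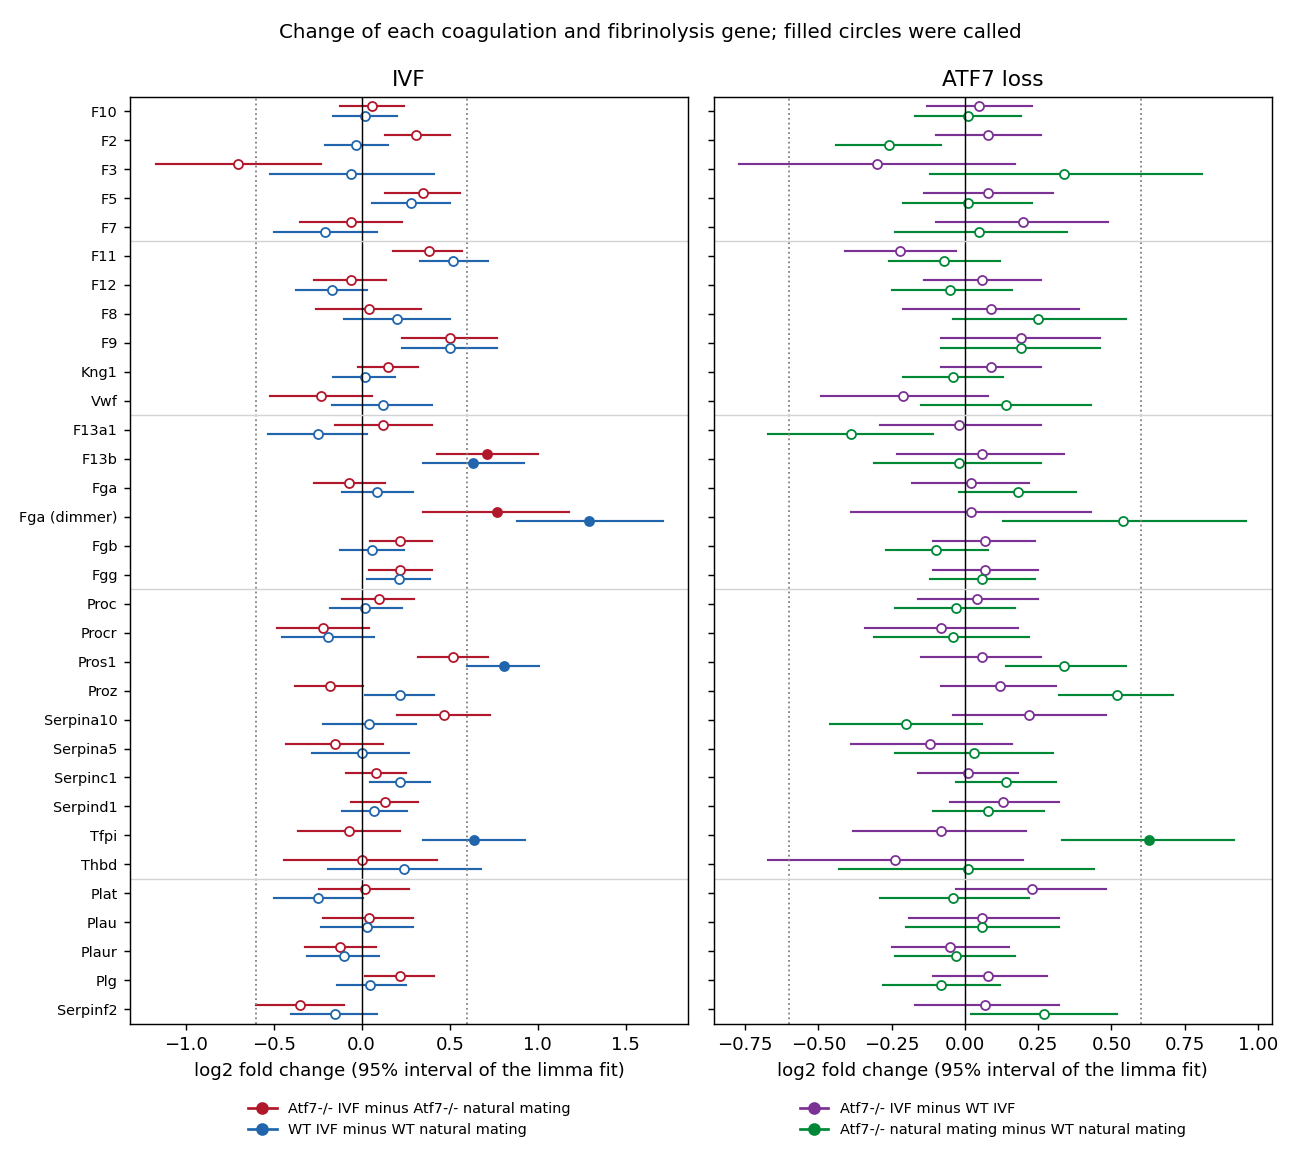
Log2 fold change of each measured gene (points, with 95% intervals of the limma fit as lines) for IVF against natural mating (left) and for Atf7-/- against WT (right), with Fga shown by both probe sets. Filled points were called, and dotted lines mark a log2 fold change of 0.6 in either direction. Filled points appear only for F13b, the dimmer Fga probe set, Pros1 and Tfpi, and none lies below 0.

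Of the initiation and common pathway factors, 0 of 5 were called in any comparison, where at most 3.83% of all probe sets were called higher and 3.67% lower. At such shares a count of 0 is not a result about these factors. F3, encoding tissue factor, the cell surface starter of the cascade, read 6.56, 6.26 and 6.55 in Atf7-/- IVF, 7.44, 7.43 and 6.59 in Atf7-/- natural mating, 6.77, 6.69 and 6.80 in WT IVF, and 7.06, 6.82 and 6.55 in WT natural mating. Replicates 1 and 2 of Atf7-/- natural mating stood above all other livers and replicate 3 was at the level of the IVF livers. In Atf7-/- mice F3 moved by -0.70 on the log2 scale after IVF (SE 0.21, adjusted p = 0.053), which did not pass. Without Atf7-/- natural mating replicate 3 it was -0.98 (adjusted p = 0.00507), and without WT natural mating replicate 3 the adjusted p was 0.0464. Without that first array Atf7-/- against WT among natural mating mice was 0.62 (adjusted p = 0.0314), against 0.34 with it, and the interaction was -0.92 (adjusted p = 0.0346), against -0.64 with it. F3 is described because of this sensitivity, after its values were seen.

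F2, encoding prothrombin, averaged 12.77 ± 0.08 in Atf7-/- IVF, 12.46 ± 0.05 in Atf7-/- natural mating, 12.69 ± 0.03 in WT IVF and 12.72 ± 0.10 in WT natural mating. The Atf7-/- natural mating livers were the lowest of the 4 groups, below every other liver. IVF in Atf7-/- mice gave 0.31 (SE 0.08, adjusted p = 0.0277), under the fold required, and leaving out any 1 of 5 arrays (each Atf7-/- natural mating array, Atf7-/- IVF replicates 1 and 3) raised the adjusted p above 0.05, to 0.0982 at most. F5, encoding the cofactor of factor Xa, moved by 0.35 in Atf7-/- mice (SE 0.10, adjusted p = 0.0435) and by 0.28 in WT mice (adjusted p = 0.108). All IVF livers lay above all natural mating livers for F5 within each genotype, but the Atf7-/- result was lost without any 1 of 10 arrays, with adjusted p up to 0.159. F7 and F10, the protease that tissue factor binds and the protease of the common pathway, stayed between -0.21 and 0.20 in all 4 comparisons, with adjusted p of 0.379 or more.

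Among the contact and intrinsic factors, F9 and F11 were higher after IVF in both genotypes, by less than the fold required. F9, encoding the protease missing in hemophilia B, read 10.51, 10.75 and 10.95 in Atf7-/- IVF against 10.35, 10.03 and 10.32 in Atf7-/- natural mating. In WT mice F9 read 10.51, 10.51 and 10.61 after IVF, against 10, 10.07 and 10.06 after natural mating. The groups did not overlap in either genotype. The log2 fold change of F9 was 0.50 (SE 0.12) in each, with adjusted p = 0.0202 in Atf7-/- and 0.0299 in WT mice. It lost significance in Atf7-/- mice without natural mating replicate 2 or IVF replicate 2 or 3 (adjusted p up to 0.0816), reached 0.61 and was called without IVF replicate 1, and lost significance in WT mice without any 1 of the 6 WT arrays (adjusted p up to 0.0947).

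F11, encoding the protease that activates factor IX, read 9.75, 9.75 and 9.82 in Atf7-/- IVF against 9.47, 9.33 and 9.40 in Atf7-/- natural mating, and 10.02, 9.90 and 10.07 in WT IVF against 9.36, 9.47 and 9.58 in WT natural mating. IVF livers were above natural mating livers throughout, and the 3 WT IVF livers were the highest of all 12. The log2 fold change was 0.38 in Atf7-/- mice (SE 0.09, adjusted p = 0.0165) and 0.52 in WT mice (SE 0.09, adjusted p = 0.0064), and the interaction was -0.15 (adjusted p = 0.537). The WT result passed whichever array was left out, while the Atf7-/- result was lost without natural mating replicate 2 or 3 or IVF replicate 3 (adjusted p up to 0.0676). Kng1, encoding kininogen of the contact system, F12, F8 and Vwf passed no test (log2 fold changes from -0.23 to 0.25). Kng1 has a close copy, Kng2, whose transcripts its probes may share.

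**Figure D2:**
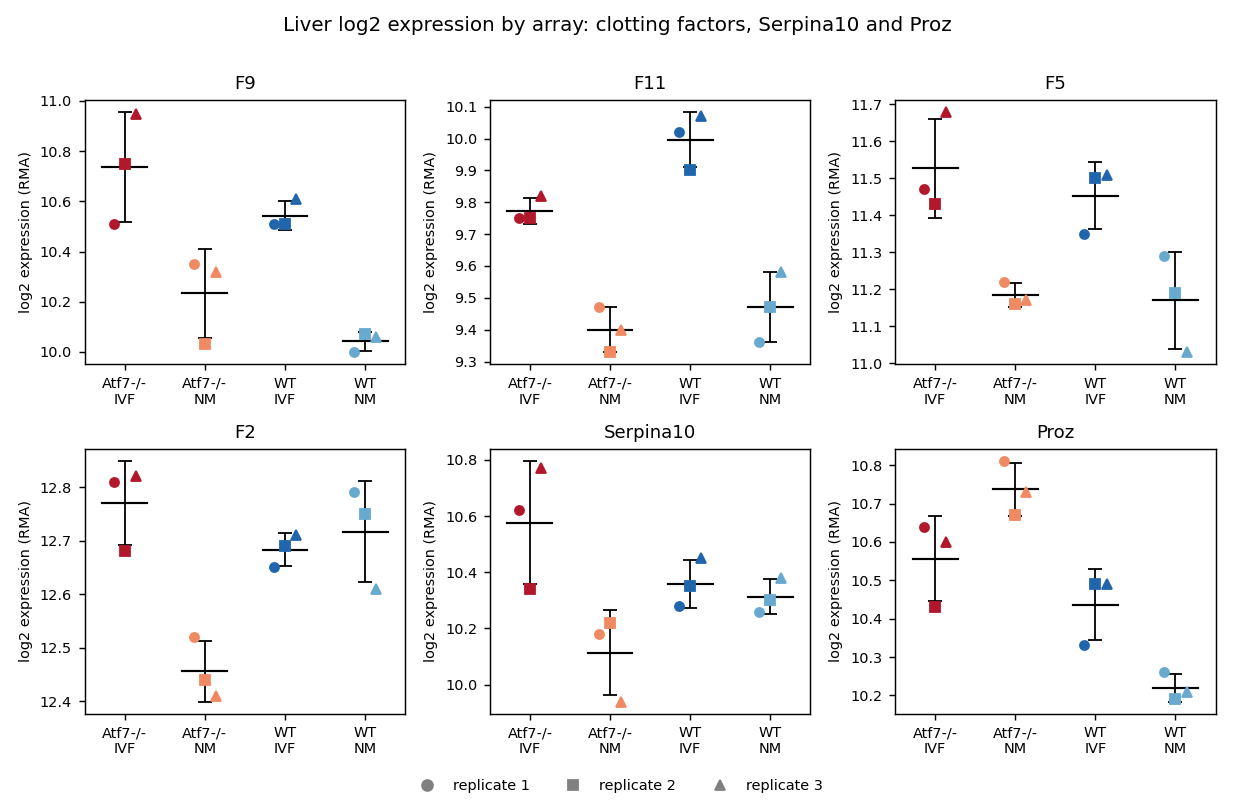
Log2 expression by array of F9, F11, F5, F2, Serpina10 and Proz in the 4 groups, with NM for natural mating, a symbol per replicate, and bars for the group mean and SD (n = 3 each). F9, F11 and F5 stand higher after IVF in each genotype without overlap, F2 and Serpina10 are lowest in Atf7-/- natural mating, and Proz is lowest in WT natural mating.

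The fibrin-forming genes held the 1 member called after IVF in both genotypes. F13b, encoding the plasma carrier subunit of factor XIII, read 10.51, 10.74 and 10.92 in Atf7-/- IVF against 10.11, 9.91 and 10.01 in Atf7-/- natural mating. It read 10.62, 10.54 and 10.85 in WT IVF against 10.21, 9.95 and 9.95 in WT natural mating. All 6 IVF livers were above all 6 natural mating livers. The log2 fold change was 0.71 in Atf7-/- mice (SE 0.13, adjusted p = 0.00483) and 0.63 in WT mice (SE 0.13, adjusted p = 0.0154), and the interaction of 0.08 did not pass (95% interval -0.32 to 0.48, adjusted p = 0.852). The Atf7-/- call was kept whichever array was left out (0.62 to 0.82). In WT mice F13b was no longer called at 0.59 with an adjusted p of 0.0545 once natural mating replicate 2 was left out, at 0.59 and 0.0361 once replicate 3 was, and at 0.54 and 0.0586 once IVF replicate 3 was. F13a1, encoding the catalytic subunit that blood cells of the monocyte and platelet lineages make, did not pass (IVF: 0.12 in Atf7-/- and -0.25 in WT mice).

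Fga, encoding the fibrinogen alpha chain, gave different results with its 2 probe sets. The brighter one (10492748) read 12.98, 12.89 and 13.05 in Atf7-/- IVF, 13.07, 13.02 and 13.04 in Atf7-/- natural mating, 12.94, 12.83 and 13.08 in WT IVF, and 12.92, 12.74 and 12.92 in WT natural mating. IVF and natural mating livers overlapped in both genotypes, and IVF gave -0.07 in Atf7-/- (adjusted p = 0.708) and 0.09 in WT mice (adjusted p = 0.6). The dimmer one (10492755) read 10.33, 10.30 and 10.76 in Atf7-/- IVF against 9.60, 9.72 and 9.77 in Atf7-/- natural mating, and 10.49, 10.01 and 10.83 in WT IVF against 9.18, 9.24 and 9.04 in WT natural mating. With it, all 6 IVF livers were above all 6 natural mating livers. The log2 fold change of the dimmer Fga probe set was 0.77 in Atf7-/- (SE 0.19, adjusted p = 0.0211) and 1.29 in WT mice (SE 0.19, adjusted p = 0.00353), both called, and the interaction was -0.52 (adjusted p = 0.282). The WT call was kept whichever array was left out (1.10 to 1.51), and the Atf7-/- call ended without natural mating replicate 1 or 2 or IVF replicate 3 (adjusted p up to 0.0872).

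Within an array, the dimmer Fga probe set minus the brighter one was -2.65 to -2.29 in Atf7-/- IVF against -3.47 to -3.28 in Atf7-/- natural mating, and -2.83 to -2.24 in WT IVF against -3.89 to -3.50 in WT natural mating. The mean difference was thus 0.84 higher after IVF in Atf7-/- mice and 1.2 higher in WT mice. Each gave p = 0.1 in an exact two-sided permutation test, the smallest p that 3 against 3 allows. Among natural mating mice it was 0.36 higher in Atf7-/- than in WT livers (exact two-sided permutation test, p = 0.1), without overlap. The dimmer probe set alone gave 0.54 there, which did not pass. Among IVF mice the genotypes overlapped and differed by 0, so the 2 probe sets disagreed between natural mating genotypes too. Both probe sets carry the Fga symbol alone in the platform annotation, and which transcripts or part of the gene each covers was not analysed. The change of Fga after IVF therefore depends on the probe set, and only the brighter one counts among the 31 members. Fgb and Fgg, the other fibrinogen chains, gave 0.22 each in Atf7-/- mice (adjusted p = 0.0957 and 0.114) and 0.06 and 0.21 in WT mice (adjusted p = 0.696 and 0.143). The 3 fibrinogen genes are known as a coordinately expressed cluster of hepatocytes.

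**Figure D3:**
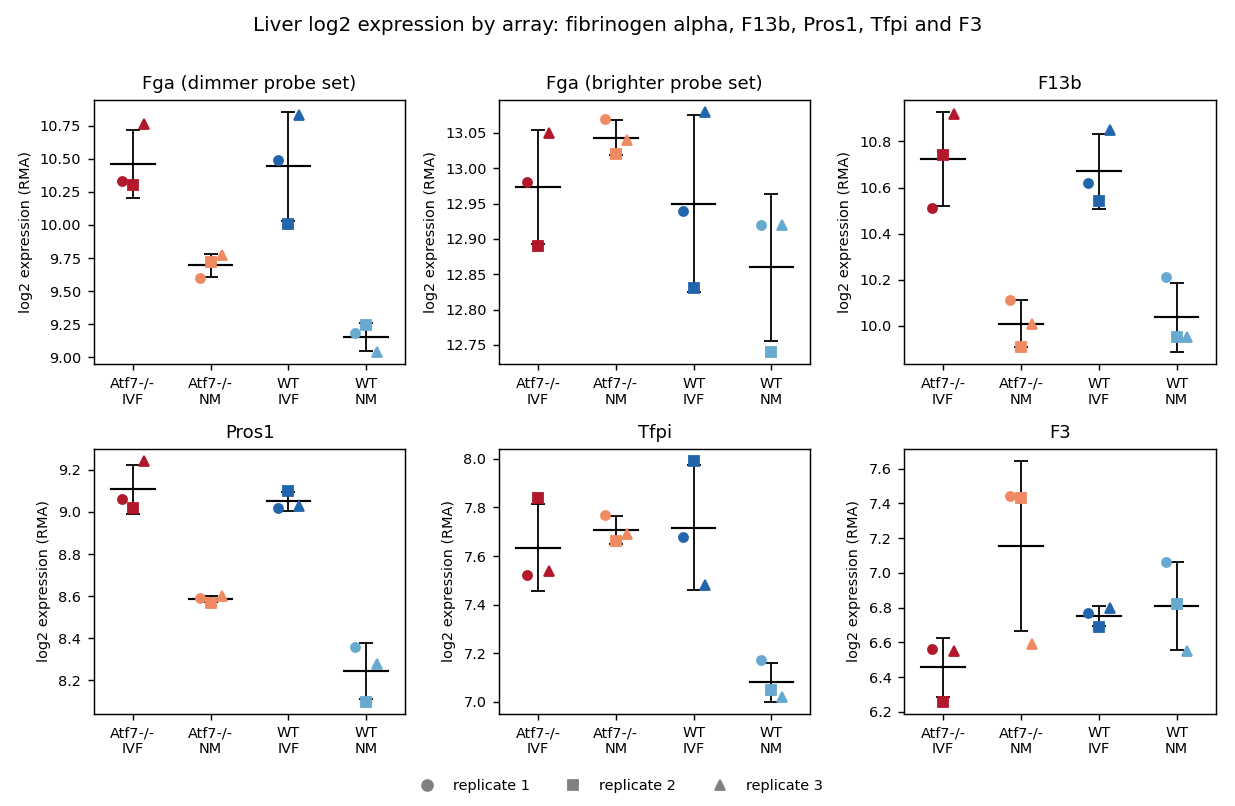
Log2 expression by array of both Fga probe sets, F13b, Pros1, Tfpi and F3 in the 4 groups, with NM for natural mating, a symbol per replicate, and bars for the group mean and SD (n = 3 each). The dimmer Fga probe set and F13b separate IVF from natural mating livers in both genotypes while the brighter Fga probe set does not, and the 3 WT natural mating livers are the lowest of all for Pros1 and Tfpi.

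The RefSeq promoters of the members called or shown by more than 1 probe set are given so that the windows searched for motifs can be seen. The 250 bases before the annotated start (build GRCm38.p6) are printed 5′ to 3′ on the gene's strand for F13b (chr1:139501457-139501706, plus strand), Fga (chr3:83025903-83026152, plus strand), Pros1 (chr16:62854057-62854306, plus strand) and the first of the Tfpi starts (chr2:84476760-84477009, minus strand). Capitals mark the palindromic site of HNF1, a hepatocyte transcription factor, cut to 1 of its arms, GTTAAT or its complement ATTAAC.
F13b: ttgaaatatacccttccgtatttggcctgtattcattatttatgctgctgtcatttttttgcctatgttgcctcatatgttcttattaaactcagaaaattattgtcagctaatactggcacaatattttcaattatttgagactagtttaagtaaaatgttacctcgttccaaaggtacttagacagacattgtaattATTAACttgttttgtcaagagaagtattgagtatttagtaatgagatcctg
Fga: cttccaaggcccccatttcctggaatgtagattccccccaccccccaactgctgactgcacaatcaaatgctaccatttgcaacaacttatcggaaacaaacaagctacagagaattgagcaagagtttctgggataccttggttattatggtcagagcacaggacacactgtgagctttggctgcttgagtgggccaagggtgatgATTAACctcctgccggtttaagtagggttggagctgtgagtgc
Pros1: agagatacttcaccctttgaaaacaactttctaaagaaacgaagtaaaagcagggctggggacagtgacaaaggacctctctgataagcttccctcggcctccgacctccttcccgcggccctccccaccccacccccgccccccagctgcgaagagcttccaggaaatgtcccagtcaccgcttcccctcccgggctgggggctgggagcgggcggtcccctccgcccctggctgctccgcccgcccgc
Tfpi: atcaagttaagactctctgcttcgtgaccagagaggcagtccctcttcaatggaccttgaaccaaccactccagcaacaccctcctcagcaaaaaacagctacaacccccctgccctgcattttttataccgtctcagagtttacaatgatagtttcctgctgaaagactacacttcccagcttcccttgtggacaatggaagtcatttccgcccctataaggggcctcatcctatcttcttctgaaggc

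This arm began 51 bases before the start of F13b and 43 bases before that of Fga. In windows of 300 bases, which add the first 50 transcribed bases, it was found on either strand in 5 of the 23 members in the promoter table (21.7%: F2, F13b, Fga, Fgb and Proz) and in 7.10% of all 32851 promoters. The cyclic AMP response element that ATF7 binds, TGACGTCA, was in 0 of 23 members and in 1.79% of all promoters. Its shorter core TGACG, which lies within it, was in 6 members (26.1%: F2, F9, F12, F13a1, F13b and Procr) and in 20.8% of all promoters. The E-box CACGTG was in 1 member (4.35%, Tfpi, against 7.15% of all), the D-box TTACGTAA in 0 (0.119% of all), and the C/EBP site TTGCGCAA in 1 (4.35%, Serpina5, against 0.183% of all). GC content of the members' windows ran from 32.7% to 70.3% with a median of 50.0%, beside 52.7% for all promoters. These matches are a description of letters, untested for binding.

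Of the 10 anticoagulant genes, 0 were called after IVF in Atf7-/- mice and 2, both higher, in WT mice. Of all probe sets, 3.27% were called higher in Atf7-/- and 2.85% in WT mice. Pros1, encoding protein S, the cofactor of activated protein C, read 9.06, 9.02 and 9.24 in Atf7-/- IVF against 8.59, 8.57 and 8.60 in Atf7-/- natural mating, and 9.02, 9.10 and 9.03 in WT IVF against 8.36, 8.10 and 8.28 in WT natural mating. The 4 groups fell on 3 levels, with both IVF groups highest, Atf7-/- natural mating next and WT natural mating lowest. IVF gave 0.52 in Atf7-/- mice (SE 0.09, adjusted p = 0.00433), under the fold required, and 0.81 in WT mice (SE 0.09, adjusted p = 0.00133), which was called. Both kept an adjusted p of at most 0.05 whichever array was left out (0.45 to 0.57 in Atf7-/-, 0.73 to 0.86 in WT). The interaction of -0.29 did not pass (95% interval -0.58 to 0.00, adjusted p = 0.227). Atf7-/- against WT gave Pros1 0.06 among IVF mice (adjusted p = 0.953) and 0.34 among natural mating mice (adjusted p = 0.0312), the natural mating value being lost without WT natural mating replicate 2 or any 1 Atf7-/- natural mating array (adjusted p up to 0.112).

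Tfpi, encoding the inhibitor of tissue factor and factor VIIa, was the only member called in a comparison of genotypes and the only one called for the interaction. It read 7.52, 7.84 and 7.54 in Atf7-/- IVF, 7.77, 7.66 and 7.69 in Atf7-/- natural mating, 7.68, 7.99 and 7.48 in WT IVF, and 7.17, 7.05 and 7.02 in WT natural mating. The 3 WT natural mating livers were below the other 9, which overlapped. IVF gave -0.07 in Atf7-/- mice (adjusted p = 0.808) and 0.64 in WT mice (SE 0.13, adjusted p = 0.0161). Atf7-/- against WT gave -0.08 among IVF mice (adjusted p = 0.949) and 0.63 among natural mating mice (SE 0.13, adjusted p = 0.00978). The WT IVF comparison and the natural mating comparison share the 3 WT natural mating arrays, so their 2 values are not independent. The interaction of Tfpi was -0.71 (SE 0.19, adjusted p = 0.0441).

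The Tfpi results rested on single arrays. The interaction was lost without any 1 of 10 of the 12 arrays (log2 values from -0.83 to -0.58 and adjusted p up to 0.102 over all 12), and was kept without Atf7-/- IVF replicate 2 and without WT IVF replicate 3. The call in WT mice was lost at 0.50 (adjusted p = 0.0504) once IVF replicate 2 was left out, and at 0.62 (adjusted p = 0.0522) once natural mating replicate 2 was. Among natural mating mice it fell just under the fold required without Atf7-/- replicate 1 (0.59, adjusted p = 0.0408) or WT replicate 3 (adjusted p = 0.0283). The mean log2 level of all 18 listed endothelial markers was 8.72 to 8.79 in Atf7-/- IVF, 8.74 to 8.98 in Atf7-/- natural mating, 8.63, 8.94 and 8.60 in WT IVF and 8.63, 8.62 and 8.48 in WT natural mating. The WT groups overlapped, and of the WT IVF livers only replicate 2 lay above all WT natural mating livers. After IVF in WT mice the median change of the 18 was 0.11, with 13 positive and 5 negative. In Atf7-/- against WT among natural mating mice it was 0.20, with 15 positive and 3 negative. The 2 natural mating groups did not overlap in the mean level of these markers. Of the 18, Clec4g, a sinusoidal lectin, was called in WT mice after IVF (0.75, adjusted p = 0.0225), and Clec4g (1.0, adjusted p = 0.00283) and Eng, a vascular coreceptor (0.62, adjusted p = 0.00882), in Atf7-/- against WT among natural mating mice, with 0 called lower in either. With the mean of its probe sets, Clec4g gave 0.32 and 0.45 in those 2 comparisons and was not called, and its WT IVF call also ended without any WT IVF array or WT natural mating replicate 2 or 3 (adjusted p up to 0.0786). The Eng call was lost by its fold, though not by its adjusted p (at most 0.0403), once replicate 3 of either natural mating group was left out, the Atf7-/- one giving 0.52. For stellate cell and fibroblast markers, the mean log2 level of the 16 listed was 8.64 to 8.71 in Atf7-/- IVF, 8.44 to 8.73 in Atf7-/- natural mating, 8.48, 8.76 and 8.49 in WT IVF and 8 to 8.35 in WT natural mating. Of these, 1 was called higher after IVF in WT mice and 5 in Atf7-/- against WT among natural mating mice, with 0 lower. In the same 2 comparisons 2.85% and 3.83% of all probe sets were called higher, and 1.67% and 3.67% lower. The median change of the 16 was 0.40 (15 positive, 1 negative) and 0.38 (14 positive, 2 negative) in that order. In their mean level all WT natural mating livers lay below all other livers. The part of endothelial and stellate cells in the Tfpi result was not tested.

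WT IVF replicate 2 differed from the other WT IVF livers in several endothelial genes, though not in Procr, and in some of the other lists. Its values were 9.68 for F8, against 9.14 and 9.12 in the other WT IVF livers, 7.31 for Vwf, against 6.94 and 6.81, and 7.70 for Thbd, against 6.90 and 6.96. F8 encodes the cofactor missing in hemophilia A, Vwf the carrier of factor VIII that tethers platelets, and Thbd thrombomodulin, which turns thrombin toward protein C. Its mean log2 level was 8.94 for the endothelial markers, against 8.63 and 8.60 in the other WT IVF livers, 8.76 for the stellate cell and fibroblast markers, against 8.48 and 8.49, and 7.03 for the 9 erythroid and hematopoietic markers, against 6.65 and 6.57. For the 20 acute-phase genes it was lower, at 9.14 against 9.87 and 9.90. The Kupffer cell and macrophage markers averaged 8.53 in it, against 8.58 in each of the others. The megakaryocyte and platelet markers averaged 6.88, against 7.14 and 7.02. None of F8, Vwf, Thbd and Procr, the endothelial protein C receptor, passed a test in any comparison (smallest adjusted p = 0.27). Procr read 6.10 in WT IVF replicate 2, between the 6.21 and 5.94 of the other WT IVF livers.

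**Figure D4:**
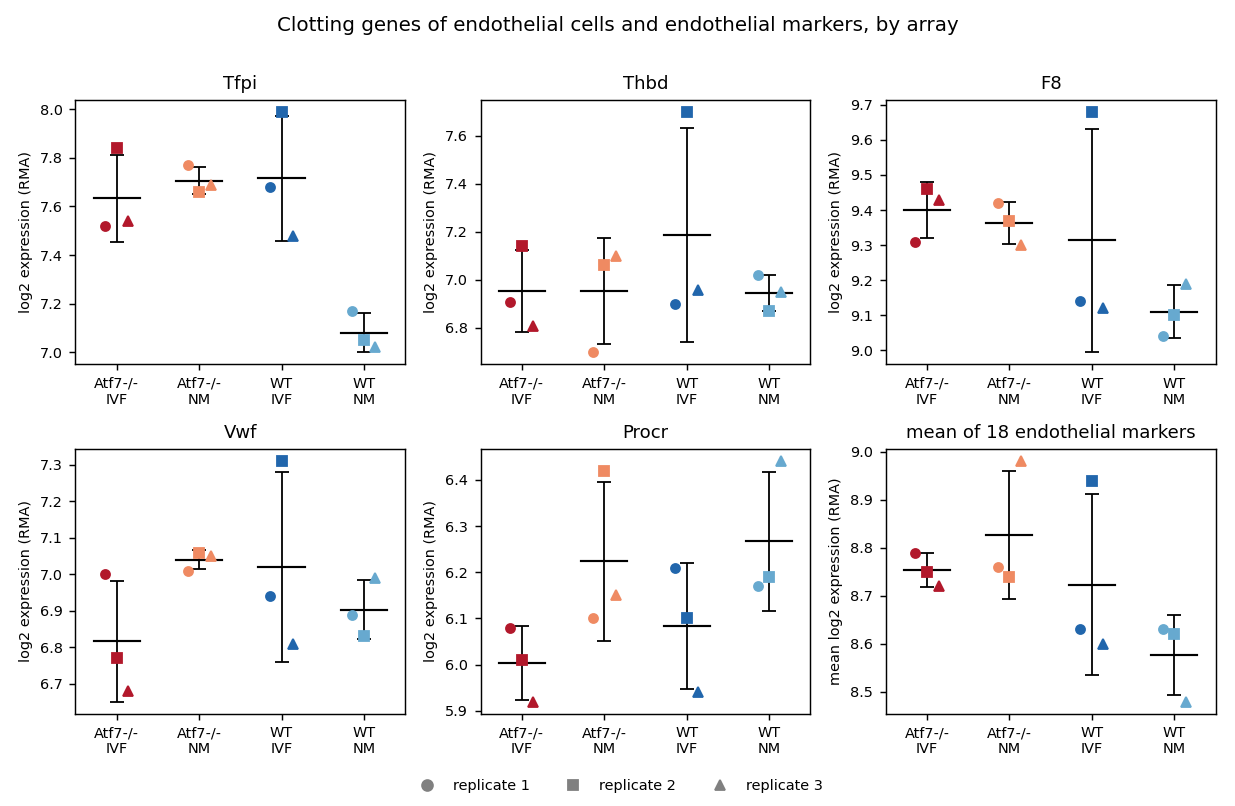
Log2 expression by array of Tfpi, Thbd, F8, Vwf and Procr, and the mean log2 level of 18 endothelial markers, in the 4 groups, with NM for natural mating, a symbol per replicate, and bars for the group mean and SD (n = 3 each). WT IVF replicate 2 (square) is the highest of all 12 livers for Tfpi, Thbd, F8 and Vwf, and at 8.94 is above the other WT IVF livers for the marker mean.

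Proz, encoding protein Z, the cofactor by which the product of Serpina10 inhibits factor Xa, read 10.64, 10.43 and 10.60 in Atf7-/- IVF, 10.81, 10.67 and 10.73 in Atf7-/- natural mating, 10.33, 10.49 and 10.49 in WT IVF, and 10.26, 10.19 and 10.21 in WT natural mating. Atf7-/- natural mating livers were the highest and WT natural mating livers the lowest, without overlap. Atf7-/- against WT among natural mating mice gave 0.52 (SE 0.09, adjusted p = 0.00329), under the fold required, and passed on the adjusted p whichever array was left out (0.48 to 0.55). IVF gave Proz -0.18 in Atf7-/- mice (adjusted p = 0.231) and 0.22 in WT mice (adjusted p = 0.157), and the interaction was -0.40 (adjusted p = 0.0846). Serpina10 averaged 10.58 ± 0.22 in Atf7-/- IVF, 10.11 ± 0.15 in Atf7-/- natural mating, 10.36 ± 0.09 in WT IVF and 10.32 ± 0.06 in WT natural mating. IVF gave Serpina10 0.47 in Atf7-/- mice (SE 0.12, adjusted p = 0.0257), lost without natural mating replicate 1 or 3 or IVF replicate 1 or 3 (adjusted p up to 0.102), and 0.04 in WT mice (adjusted p = 0.859). The interaction of 0.42 did not pass (adjusted p = 0.169).

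The remaining inhibitors passed no test. Serpinc1, encoding antithrombin, gave 0.08 after IVF in Atf7-/- mice (95% interval -0.09 to 0.25) and 0.22 in WT mice (0.05 to 0.39, adjusted p = 0.108). Serpind1, encoding heparin cofactor II, gave 0.13 and 0.07, and Proc, encoding protein C, 0.10 and 0.02, in Atf7-/- and WT mice in that order. Serpina5, the protein C inhibitor, was 1 of 6 members whose mean over all arrays lay below the median of all probe sets, 6.27, with F13a1, Procr, Plat, Plau and Plaur, so 25 of 31 passed a filter on dim probe sets. No call rested on these 6.

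Of the 5 fibrinolysis genes, 0 were called in any comparison, where at most 3.83% of all probe sets were called higher and 3.67% lower. At such shares a count of 0 is not a result about these 5 genes. Plg, encoding plasminogen, averaged 13.05 ± 0.13 in Atf7-/- IVF, 12.83 ± 0.06 in Atf7-/- natural mating, 12.97 ± 0.05 in WT IVF and 12.91 ± 0.08 in WT natural mating. IVF gave Plg 0.22 in Atf7-/- mice (95% interval 0.02 to 0.41, adjusted p = 0.151) and 0.05 in WT mice (-0.14 to 0.25). Serpinf2, encoding the plasmin inhibitor antiplasmin, averaged 12.53 ± 0.24 in Atf7-/- IVF, 12.88 ± 0.07 in Atf7-/- natural mating, 12.45 ± 0.03 in WT IVF and 12.61 ± 0.04 in WT natural mating, and gave -0.35 after IVF in Atf7-/- mice (adjusted p = 0.0651) and -0.15 in WT mice (adjusted p = 0.44). For both genes Atf7-/- natural mating differed from the IVF livers of that genotype without overlap, Plg lower and Serpinf2 higher, but neither passed. Plat and Plau, the tissue and urokinase activators of plasminogen, and Plaur, the urokinase receptor, stayed between -0.25 and 0.23 in all comparisons.

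Between genotypes, 1 coagulation gene was called among natural mating mice and 0 among IVF mice. Among IVF mice 0 of 31 members were called, where 0% of all probe sets were called higher and 0.00575% lower. At an unadjusted p under 0.05, 1 member (F11, -0.22) and 2126 of all probe sets passed there. The members' median log2 fold change was 0.06 among IVF and 0.01 among natural mating mice, beside 0.01 and -0.02 over all probe sets. Among natural mating mice the called member was Tfpi, 1 higher and 0 lower, where 3.83% of all probe sets were called higher and 3.67% lower. On the adjusted p alone Tfpi, Proz and Pros1 passed, all higher, where 7.27% of all probe sets passed higher and 6.44% lower. These 3 are among the 10 anticoagulants, whose median change there was 0.05, with 7 positive and 3 negative. Whether the anticoagulants differ from the other members was not tested. F13a1 gave -0.39 among natural mating mice (adjusted p = 0.0649), with means of 4.96 ± 0.12 in Atf7-/- and 5.35 ± 0.21 in WT livers. Beside it, 4 of 15 Kupffer cell and macrophage markers were called lower and 1 higher, and their mean log2 level was 8.38 to 8.51 in Atf7-/- against 8.48 to 9.09 in WT natural mating livers. Their part in the F13a1 value was not tested. For the interaction 1 of 31 members (Tfpi) was called lower and 0 higher, where 3.46% of all probe sets were called lower and 2.72% higher. That some members passed in one genotype and not in the other does not show a difference, which was tested by the interaction.

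A wider list of 38 genes, 33 of them measured, was set beside the members. It holds genes of hemostasis and also others, among them Prss8, a membrane protease of epithelia, and Proser1. Prss8 and Proser1 have no established clotting role. Ecm1, another of the list, is also in the list of stellate cell and fibroblast markers. In Atf7-/- against WT among natural mating mice 5 of the list were called higher, 2 of them being Prss8 and Proser1, and 0 lower, while 0 were called among IVF mice. Of all probe sets, 3.83% were called higher and 3.67% lower among natural mating mice, and 0% and 0.00575% among IVF mice. Anxa5, which coats the phospholipid surface that clotting complexes need, averaged 10.39 ± 0.09 in Atf7-/- IVF, 11.22 ± 0.02 in Atf7-/- natural mating, 10.25 ± 0.07 in WT IVF and 9.79 ± 0.63 in WT natural mating. The natural mating difference of Anxa5 was 1.43 (SE 0.23, adjusted p = 0.0025) and was kept whichever array was left out (1.08 to 1.69). Tfpi2, a relative of Tfpi that inhibits plasmin and other proteases, averaged 9.29 ± 0.10, 9.61 ± 0.14, 9.33 ± 0.16 and 8.83 ± 0.15 in the same order of groups. It rose by 0.79 in that comparison (SE 0.12, adjusted p = 0.00153), kept whichever array was left out (0.72 to 0.86). Prss8 (1.12, adjusted p = 0.0111), Proser1 (0.77, adjusted p = 0.00181) and Ecm1 (0.61, adjusted p = 0.0212) were the other calls. The Ecm1 call is counted among the stellate cell and fibroblast markers too. It was lost without Atf7-/- natural mating replicate 1 or 3 or WT natural mating replicate 2 or 3 (adjusted p up to 0.0759).

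After IVF, 3.27% of all probe sets were called higher and 3.51% lower in Atf7-/- mice, and 2.85% and 1.67% in WT mice. Of the 33 genes of the wider list, 2 were called higher and 3 lower in Atf7-/- mice, and 1 higher and 0 lower in WT mice. In Atf7-/- mice the higher ones were Fgl1, a fibrinogen-related hepatocyte protein (0.94, adjusted p = 0.0177), and Fgl2, which can cleave prothrombin (0.62, adjusted p = 0.0412), and the lower ones Prss8 (-1.80, adjusted p = 0.00105), Proser1 (-0.96, adjusted p = 0.000703) and Anxa5 (-0.83, adjusted p = 0.0386). In WT mice it was A2m, a broad protease inhibitor (0.61, adjusted p = 0.0331). A2m averaged 6.16 in WT natural mating and Fgl2 6.25 in Atf7-/- natural mating livers, both under the median of all probe sets, 6.27. Prss8 and Proser1 kept these calls whichever array was left out. Fgl1 lost its call without 4 arrays (Atf7-/- natural mating or IVF replicate 1 or 3, adjusted p up to 0.0767), Fgl2 and Anxa5 without any 1 of 9 arrays each (adjusted p up to 0.12 and 0.1), and A2m without any WT IVF array or WT natural mating replicate 2 or 3 (adjusted p up to 0.111).

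Liver transcription factors were listed because clotting genes are among their known targets. Hnf4a, a nuclear receptor required for many hepatocyte genes, averaged 10.98 ± 0.04 in Atf7-/- IVF, 11.74 ± 0.04 in Atf7-/- natural mating, 11.05 ± 0.08 in WT IVF and 11.06 ± 0.27 in WT natural mating. It fell by 0.76 after IVF in Atf7-/- mice (adjusted p = 0.00252) and was 0.68 higher in Atf7-/- than in WT natural mating livers (adjusted p = 0.0039), and the genotype difference was 0.53 and not called without WT natural mating replicate 3. Cebpa, a leucine zipper factor of hepatocytes, was lower by 0.78 on the log2 scale in Atf7-/- than in WT natural mating livers, with means of 10 ± 0.19 and 10.79 ± 0.06 (adjusted p = 0.00278). Over the 14 factors measured, 1 was called higher and 2 lower in that comparison, 0 higher and 1 lower after IVF in Atf7-/- mice, and 0 in each of the other 2 comparisons. Of all probe sets, 3.83% were called higher and 3.67% lower in the natural mating comparison of genotypes. After IVF in Atf7-/- mice the shares were 3.27% and 3.51%. Of 20 acute-phase genes, which share hepatocyte control with fibrinogen, 2 were called higher after IVF in Atf7-/- and 1 in WT mice, with 0 called lower. The shares of all probe sets called higher were 3.27% and 2.85%, and lower 3.51% and 1.67%, in that order. The change was negative for 11 of the 20 in each genotype, with medians of -0.01 in Atf7-/- and -0.10 in WT mice, and the lowest, at -1.92 and -2.16, did not pass. Apcs, the serum amyloid P component, rose by 0.73 in Atf7-/- (adjusted p = 0.0107) and by 1.36 in WT mice (adjusted p = 0.00132). The Atf7-/- value was lost without Atf7-/- IVF replicate 3 (adjusted p = 0.0504).

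Platelet transcripts were checked because F13a1 and Vwf are also platelet products. Of 10 megakaryocyte and platelet markers, 2 were called higher after IVF in WT mice, where 2.85% of all probe sets were, and 0 in any other comparison. They were Ppbp (2.05, adjusted p = 0.0179) and Pf4 (0.72, adjusted p = 0.0164), platelet granule chemokines. Pf4 averaged 6.18 in WT natural mating livers, under the median of all probe sets, 6.27. Ppbp lost its call without WT IVF replicate 1 or 3 or WT natural mating replicate 1 or 2 (adjusted p up to 0.0643), and Pf4 without WT IVF replicate 1 or 2 or WT natural mating replicate 2 (adjusted p up to 0.0601). The mean log2 level of the 10 was 6.77 to 6.95 in Atf7-/- IVF, 6.75 to 6.83 in Atf7-/- natural mating, 6.88 to 7.14 in WT IVF and 6.61 to 6.92 in WT natural mating. F13a1 and Vwf moved by -0.25 and 0.12 after IVF in WT mice (adjusted p = 0.252 and 0.629).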

How the data were processed

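Total liver RNA from 12 male mice was measured on Affymetrix Mouse Gene 1.0 ST arrays. Log2 expression values deposited by the authors, made by RMA in affy, served unchanged as input. Versions of RMA and affy: not given in the sources used here. Probe sets were named from the platform annotation, in which 21640 carry 1 symbol, 1321 several and 11799 none. Where a gene of the list had several, the brightest was used.

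The fit was made by limma 3.58.1 (R 4.3.3) with 4 group means, empirical Bayes variances, 8 residual degrees of freedom and Benjamini-Hochberg adjustment over all 34760 probe sets. The thresholds, an adjusted p of at most 0.05 and a log2 fold change of at least 0.6 in size, are those of the study's methods. The fit was tested on simulated data. Permutation tests used scipy 1.17.1. With 3 arrays per group, their number limits the precision, and no scan batches were given. Promoter sequences are RefSeq's (GRCm38.p6), matched by symbol for 23 of 31 members.

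The members and all lists were chosen with earlier results of these data known. Genes outside the members were named as at most the 4 largest called changes per list and comparison. Ecm1, a smaller change, was named because it is counted in another list too. F3 and the Proz interaction were chosen once their values were known. As alternatives, arrays were left out one at a time, weighted, median-centred or quantile-normalized again, only the 2 groups compared were fitted, a replicate block or a robust intensity trend was added, dim probe sets or those without exactly 1 symbol were dropped, probe sets of a symbol were averaged, and thresholds were changed.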

Additional observations from a re-analysis of the deposited data

Results flagged for a closer look

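Results stood out because the IVF change in Atf7-/- mice differed from that in WT mice by limma's interaction test, which no comparison of separate calls replaces. Among the coagulation genes this was Tfpi alone, at -0.71 (adjusted p = 0.0441), with the arrays it depends on given above. Of the wider list of 33 genes, it was Prss8 at -1.42 (adjusted p = 0.0314), Anxa5 at -1.29 (adjusted p = 0.0396), Tfpi2 at -0.83 (adjusted p = 0.0147) and Proser1 at -0.81 (adjusted p = 0.0169). Prss8 and Proser1 have no established clotting role. Each IVF change of these 4 genes was more negative in Atf7-/- than in WT mice. Of the liver transcription factors, it was Hnf4a at -0.74 (adjusted p = 0.026) and Cebpa at 0.76 (adjusted p = 0.0329). Of the endothelial markers, it was Clec4g at -1.10 (adjusted p = 0.019), which became -0.55 and was not called with the mean of its probe sets. Of the stellate cell and fibroblast markers, it was Pdgfrb at -0.89 (adjusted p = 0.0147) and Ngfr at -0.63 (adjusted p = 0.0342), and of the Kupffer cell and macrophage markers Cd5l at 1.18 (adjusted p = 0.01), C1qa at 0.86 (adjusted p = 0.0401) and Vsig4 at -0.67 (adjusted p = 0.0423).

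Tfpi2, Proser1, Pdgfrb and Cd5l kept the interaction call whichever array was left out, with adjusted p up to 0.0416, 0.0458, 0.0408 and 0.029. Prss8 lost it without 8 of the 12 arrays, Hnf4a without 7, Cebpa without 9 and Anxa5 without 10, with adjusted p up to 0.0778, 0.0635, 0.0818 and 0.0831 in that order, and Clec4g lost it without Atf7-/- IVF replicate 3 (adjusted p = 0.0518). Ngfr lost it without 8 arrays, Vsig4 without 9 and C1qa without 11, with adjusted p up to 0.0858, 0.101 and 0.0927. In Atf7-/- natural mating livers the group mean was the highest of the 4 groups for Prss8, Anxa5, Tfpi2, Proser1, Hnf4a, Clec4g, Pdgfrb, Ngfr and Vsig4, and the lowest for Cebpa, Cd5l and C1qa. Over all probe sets the interaction was called higher in 2.72% and lower in 3.46%.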

How the results depend on the processing

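The number of members called depended on thresholds and arrays. By the adjusted p alone it was 7 after IVF in Atf7-/- mice, 5 after IVF in WT mice and 3 in Atf7-/- against WT among natural mating mice, instead of 1, 3 and 1. At an adjusted p of at most 0.01 it was 1 after IVF in WT mice and 0 for the interaction, instead of 3 and 1. After IVF in Atf7-/- mice it was 2 (F13b higher, F3 lower) without dim probe sets, with only probe sets of 1 symbol and with the mean of a symbol's probe sets, all of which test fewer features. With that mean it was 4 after IVF in WT mice, Fga being added, instead of 3. With each array left out in turn it ran from 1 to 2 after IVF in Atf7-/- mice, from 1 to 3 after IVF in WT mice, from 0 to 2 in the natural mating comparison of genotypes and from 0 to 1 for the interaction. It was 0 for Atf7-/- against WT among IVF mice under every alternative. Tfpi after IVF in WT mice was not called in a fit of only the groups compared (adjusted p = 0.0602), nor F13b after further quantile normalization (0.56, adjusted p = 0.0158).

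Replicate numbers are not known to pair the mice. Same-numbered arrays correlated from -0.124 to 0.239 in their deviations from group means, and 5 of 12 arrays correlated best with an array of their own number. With the replicate number as a block, members called after IVF in Atf7-/- mice were 2 (F3 at adjusted p = 0.0482), and the other member counts did not change. The block also ended the calls of A2m, Fgl2 and the Cebpa, Vsig4, C1qa and Ngfr interactions (adjusted p = 0.0595, 0.0586, 0.0544, 0.0598, 0.0538 and 0.0513).

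Over 1613 recomputed values of named genes, 1367 kept their direction and call status, 227 lost and 19 gained the call, and 0 reversed. Values that were never called count as kept even where their adjusted p rose above 0.05. The gained calls include those made by dropping the fold threshold. Leaving out an array outside a comparison does not move its log2 fold change, so many of the values could not reverse. The members' 75 recomputed medians moved by less than the spread between arrays of a group (SD 0.112). That spread is larger than every member median (0.01 to 0.06), so a median could change sign and still count as unmoved. Median centring moved the median of all probe sets by at most 0.0795 and the calls after IVF in WT mice to 1334 higher and 432 lower, from 989 and 582, and those of the interaction to 711 and 1628, from 945 and 1203. With the mean of a symbol's probe sets, 1281 features were called after IVF in Atf7-/- mice, 946 after IVF in WT mice, 1270 in the natural mating comparison of genotypes and 1360 for the interaction, out of 19937, against 2356, 1571, 2606 and 2148. Without WT IVF replicate 3, 998 were called after IVF in WT mice. The causes were not tested.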
